A study of Homo sapiens with 61 samples.

Results

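The genes of the ASH1L complex (ASH1L, MORF4L1 and RBBP4) and of the histone chaperone FACT (SUPT16H and SSRP1) were followed through lists of H3K4me3 and XPC peaks. These 5 genes were taken by name out of 19970 genes with an annotated start site. Chromatin came from U2OS cells, a human osteosarcoma line. The cells were either wild-type (WT) or ASH1L-/-, a line in which CRISPR/Cas9 guides had targeted exon 2 and exons 11/12 of the gene and which was grown from an isolated colony, so that the effect of the gene and of the clone cannot be told apart. Each genotype was analysed without irradiation, and 1 h or 3 h after a UV-C dose of 20 J/m2. There were 3 libraries per genotype, time and antibody, apart from 4 XPC libraries of unirradiated WT cells, which makes 18 H3K4me3 and 19 XPC lists. At each gene, the bases lying under called peaks (the covered length) were measured in a 4-kb promoter window centred on the start site, in its upstream and its downstream 2 kb, and in the gene body beyond that window.

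ASH1L is a histone methyltransferase with a catalytic SET domain and is best known for methylating H3K36. It is activated by MRG15, a chromodomain protein encoded by MORF4L1, and RBBP4 is a WD40-repeat histone-binding protein shared with several other chromatin complexes. FACT, made of SPT16 (SUPT16H) and SSRP1, moves H2A-H2B dimers and histones out of the path of polymerases and other machines. H3K4me3 marks the first nucleosomes of active and poised promoters, and XPC is the damage sensor that starts global-genome nucleotide excision repair.

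In the H3K4me3 lists, 72984 to 142688 peaks covered 70.1 to 132 Mb per library. The XPC lists held 326438 to 500000 peaks over 165 to 464 Mb, and 17 of the 19 ended at exactly 500000. The weakest peak of each XPC list had a −log10 p-value of 1.00 to 1.47, where the threshold given in the study's methods corresponds to 2, so an XPC covered length includes peaks weaker than that threshold. The study reports read counts for each library, which differ between libraries and were not used here. The H3K4me3 total was 70.1 to 93.3 Mb in the 6 unirradiated libraries, 97.2 to 132 Mb in irradiated WT libraries and 79.4 to 108 Mb in irradiated ASH1L-/- libraries. The part of this total in the values of single genes was examined only by scaling, by equal numbers of peaks per library and by correlation with the total. Among marker genes, 4 of 6 mesenchymal and bone genes (RUNX2, PRRX1, COL1A1 and VIM) held an H3K4me3 peak in all 3 unirradiated WT libraries, whereas TWIST1 and COL1A2 held none. None of 3 blood genes had one. The epithelial genes EPCAM and KRT8 were marked in all 3 libraries and the liver gene APOA1 in some, while CDH1 and ALB were not. The knockout itself could not be checked here. No H3K4me3 peak touched exon 2, 11 or 12 in any of 9 WT or 9 ASH1L-/- libraries, and XPC peaks touched exon 2 in 1 of 10 WT and 3 of 9 ASH1L-/- libraries, exon 11 in 3 and 2, and exon 12 in 2 and 1.

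The sequences just before the start sites are shown because the H3K4me3 values below were measured around them. They are the 250 bases that precede each start site in RefSeq (GRCh38.p14), read 5′ to 3′ on the strand of the gene, with every CG dinucleotide in capitals. ASH1L lies at chr1:155562804-155563053 on the minus strand, MORF4L1 at chr15:78872640-78872889 on the plus strand, RBBP4 at chr1:32650958-32651207 on the plus strand, SUPT16H at chr14:21384020-21384269 on the minus strand and SSRP1 at chr11:57335893-57336142 on the minus strand.
ASH1L: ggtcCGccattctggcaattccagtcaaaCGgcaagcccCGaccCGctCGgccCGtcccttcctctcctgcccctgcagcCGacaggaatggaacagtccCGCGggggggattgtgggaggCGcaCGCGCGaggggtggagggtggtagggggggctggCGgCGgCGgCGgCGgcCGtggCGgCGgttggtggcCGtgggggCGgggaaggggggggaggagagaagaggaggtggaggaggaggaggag
MORF4L1: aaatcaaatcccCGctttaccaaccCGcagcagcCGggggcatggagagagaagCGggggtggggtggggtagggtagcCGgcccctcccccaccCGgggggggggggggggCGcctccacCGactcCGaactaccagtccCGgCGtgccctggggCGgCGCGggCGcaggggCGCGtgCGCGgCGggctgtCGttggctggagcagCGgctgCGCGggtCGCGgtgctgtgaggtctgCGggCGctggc
RBBP4: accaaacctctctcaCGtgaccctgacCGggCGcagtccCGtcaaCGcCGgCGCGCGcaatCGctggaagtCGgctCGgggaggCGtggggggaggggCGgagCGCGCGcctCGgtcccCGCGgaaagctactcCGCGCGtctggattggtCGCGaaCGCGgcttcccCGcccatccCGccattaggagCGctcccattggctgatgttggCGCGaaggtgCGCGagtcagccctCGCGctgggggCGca
SUPT16H: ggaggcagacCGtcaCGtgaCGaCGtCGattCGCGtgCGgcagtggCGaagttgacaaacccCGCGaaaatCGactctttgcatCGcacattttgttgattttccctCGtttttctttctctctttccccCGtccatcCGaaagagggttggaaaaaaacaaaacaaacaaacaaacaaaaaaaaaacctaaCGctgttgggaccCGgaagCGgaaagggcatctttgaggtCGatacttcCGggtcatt
SSRP1: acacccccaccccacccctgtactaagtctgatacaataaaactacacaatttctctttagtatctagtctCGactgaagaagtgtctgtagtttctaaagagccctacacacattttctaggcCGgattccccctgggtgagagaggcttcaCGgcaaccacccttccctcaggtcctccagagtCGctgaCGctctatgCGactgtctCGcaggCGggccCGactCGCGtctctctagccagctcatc

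RBBP4 carried 37 CG dinucleotides, MORF4L1 28, ASH1L 23, SUPT16H 21 and SSRP1 11, against a median of 11 over 35116 RefSeq promoters of the same length. ASH1L, MORF4L1 and RBBP4 were 71.2 to 75.6% G+C, while SUPT16H and SSRP1 were 48.4% and 53.2%. On either strand, GGGCGG was found once in ASH1L, once in MORF4L1 and at 2 places in RBBP4 (42.6% of all promoters hold it). Of the 5, only RBBP4 held CCAAT, at 2 places (32.0% of all promoters). CACGTG occurred in RBBP4 and SUPT16H (6.34%), and CCGGAAG at 2 places in SUPT16H (8.52%). None held TATAAA (10.7%). Apart from CCAAT and TATAAA, each of these motifs contains a CG that is also among the capitals.

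All 5 promoters were marked by H3K4me3 in each of the 18 libraries, but on different sides of the start site. ASH1L had its mark mainly upstream. Its upstream 2 kb were covered over 1.88 to 2 kb and in full in 15 of 18 libraries, while its downstream 2 kb were covered over 0.766 to 0.872 kb. MSTO1 starts on the opposite strand at −432 bases from the ASH1L start and ASH1L-AS1 at 777 bases, so the mark in this window cannot be assigned to ASH1L alone. A second peak lay 2 kb downstream of the ASH1L start in 16 of 18 libraries and reached at most 2.71 kb.

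MORF4L1, SUPT16H and SSRP1 showed the reverse arrangement. MORF4L1 was covered over 1.91 to 2 kb downstream and 0 to 0.6 kb upstream. SUPT16H was covered over 0.765 to 1.32 kb upstream and in full downstream in 17 of 18 libraries, and SSRP1 over 0.622 to 0.882 kb upstream and in full downstream in 17 of 18. RBBP4, which shares its promoter with ZBTB8OS (opposite strand, start at −305 bases), was covered on both sides and was filled completely in 6 of 18 libraries. A lncRNA (ENSG00000260830) starts at −267 bases from SUPT16H, opposite to it. Of 14374 promoters with a peak in unirradiated WT cells, 20.7% had more H3K4me3 upstream than downstream, as ASH1L did.

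**Figure D1:**
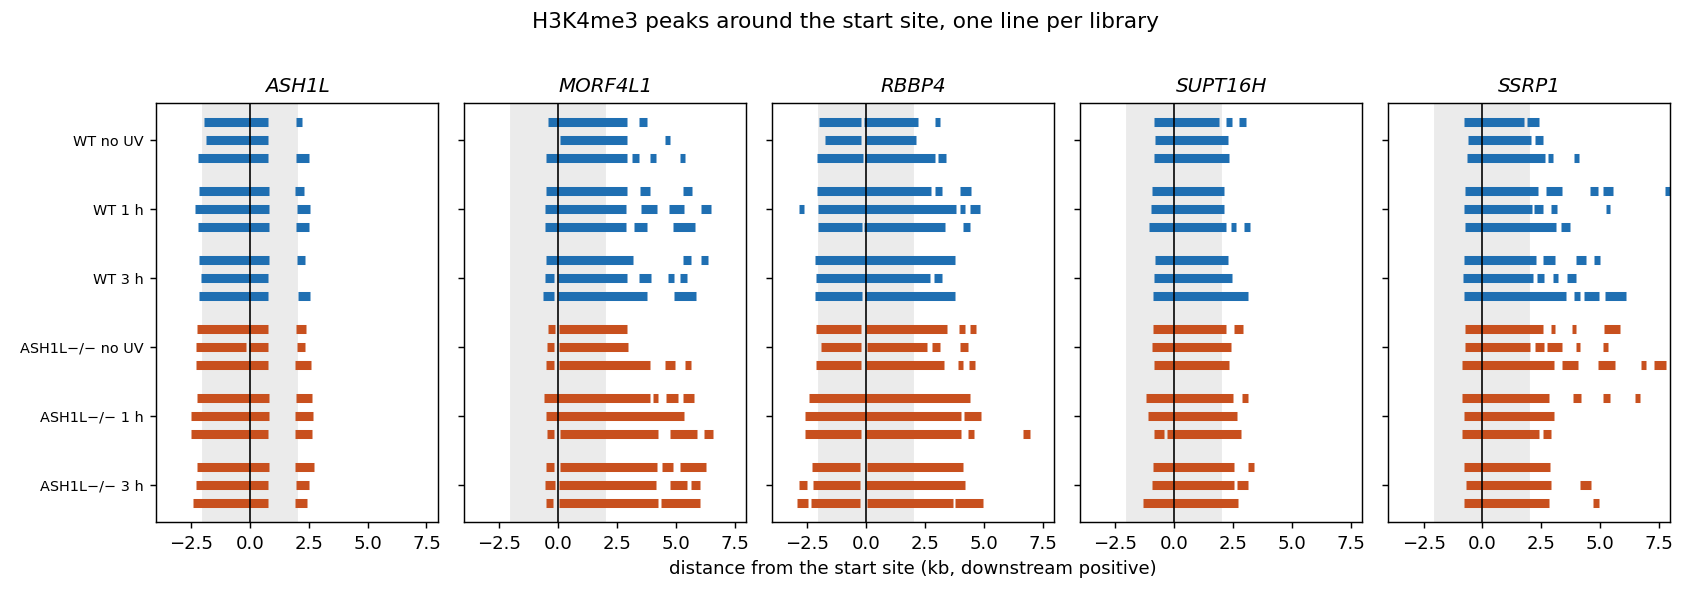
Each horizontal line is an H3K4me3 peak in 1 library, drawn by its distance from the start site in kb (downstream positive, cropped at 4 kb upstream and 8 kb downstream), with WT in blue and ASH1L-/- in orange and the 4-kb window in grey. ASH1L is covered upstream with a separate peak 2 kb downstream, and the downstream edge of MORF4L1 lies further out in irradiated ASH1L-/- libraries than in WT libraries.

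The MORF4L1 start site itself lay under a peak in 7 of 9 WT libraries and in 2 of 9 ASH1L-/- libraries. In the other libraries the mark was split by a gap at the start, or began downstream of it. The peak past the start then began at 0.0130 to 0.0910 kb, so these counts rest on small shifts of a peak edge. They were not tested, and the share over all promoters was not measured. For RBBP4 the counts were 9 of 9 in WT and 5 of 9 in ASH1L-/-. The start sites of ASH1L, SUPT16H and SSRP1 were under a peak in all 18 libraries. The summit of the strongest MORF4L1, SUPT16H and SSRP1 peak was downstream of the start in every library, at a median of 331, 556 and 410 bases. The strongest ASH1L summit was upstream in 5 libraries and downstream in 13, from −1558 to 2132 bases relative to the start. That of RBBP4 was upstream in 3 and downstream in 15, from −1388 to 569 bases.

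In unirradiated WT cells, RBBP4 had 3.76 ± 0.206 kb of H3K4me3 in its window (mean ± SD, n = 3), which placed it above 97% of all 19970 promoters. SUPT16H had 2.81 ± 0.0554 kb, ASH1L 2.73 ± 0.0559 kb and SSRP1 2.66 ± 0.0324 kb, against a median of 1.85 kb. MORF4L1 was lowest, with 2.44, 1.91 and 2.53 kb. In this order, SUPT16H overlapped ASH1L and ASH1L overlapped SSRP1, whereas RBBP4 lay above all the others and MORF4L1 below them. Its replicate 2 held no peak in the upstream window.

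**Figure D2:**
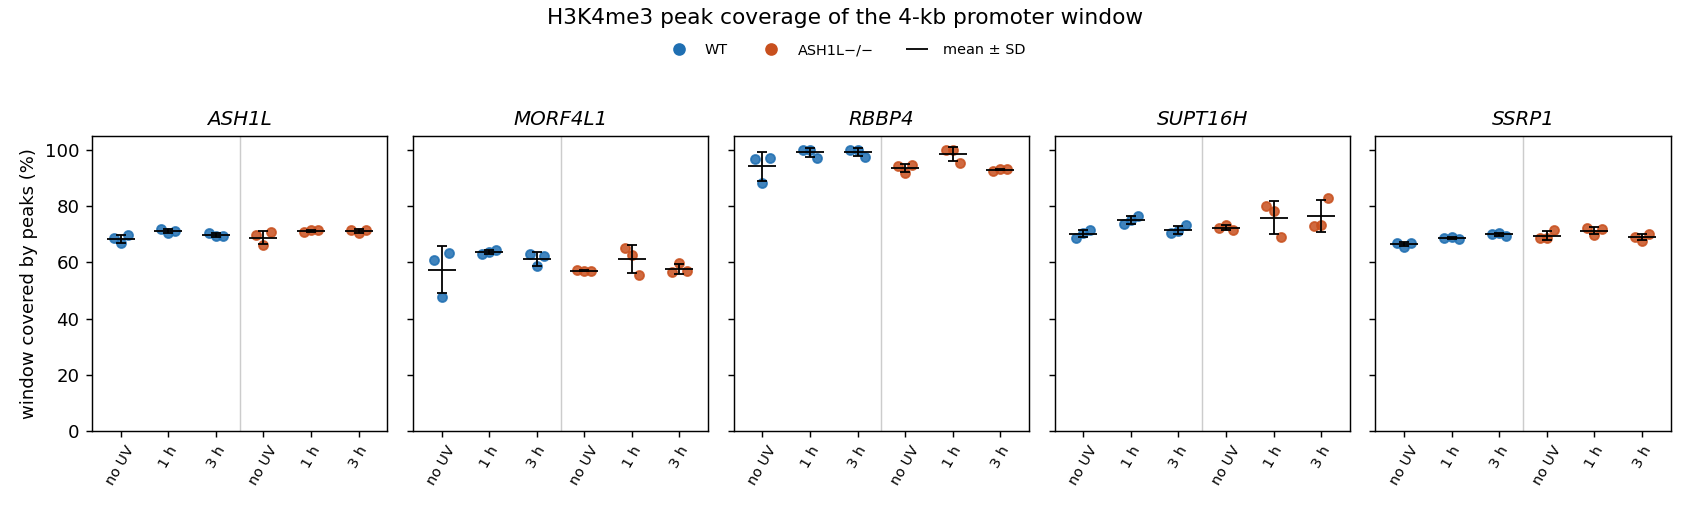
Percentage of the 4-kb promoter window under H3K4me3 peaks (y axis) for each gene, by genotype and time (x axis), with a point per library and the mean ± SD of 3 libraries. RBBP4 has 3.52 kb or more of its 4 kb covered in all libraries, and the other genes have at most 3.32 kb.

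After irradiation, RBBP4 was the gene whose promoter coverage passed the test in WT cells. Its values were 3.87, 3.52 and 3.89 kb without UV, 4, 4 and 3.88 kb at 1 h, and 4, 4 and 3.9 kb at 3 h. Replicate 2 without UV was the lowest value, and the irradiated values were at or close to the full window. The rise was 0.201 ± 0.0719 kb (± SE) over both times (adjusted p = 0.0466, limma). It was 0.0820 kb without replicate 2 of unirradiated WT cells and then no longer passed, and the call held in 4 of the 18 fits that left out 1 library. Thus 1 of 5 genes was called, where 30.5% of 14745 promoters rose and the median promoter rose by 0.203 kb.

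The other promoters differed by 0.0845 to 0.207 kb in irradiated WT cells without passing (adjusted p = 0.0838 to 0.301, limma). MORF4L1 had the upper value, which was 0.0162 kb without replicate 2 of unirradiated WT cells, and 0.325 kb and past the threshold without replicate 3 (adjusted p = 0.0380, limma). For ASH1L the value was 0.0548 kb without replicate 2. In ASH1L-/- cells the 5 genes differed by 0.0242 to 0.150 kb, and none passed (adjusted p = 0.170 to 0.726, limma), where 24% of all promoters rose. Their order depended on single ASH1L-/- libraries. SSRP1 differed by 0.00533 kb without unirradiated replicate 1 and by 0.0613 kb without replicate 3, while ASH1L and RBBP4 came to 0.0398 and 0.0505 kb without unirradiated replicate 2. SUPT16H ranged from 0.0846 kb without 3-h replicate 3 to 0.217 kb without 1-h replicate 3, and MORF4L1 from 0.0577 kb without 1-h replicate 1 to 0.152 kb without 1-h replicate 3. Between the genotypes, UV changes of the 5 genes differed by −0.115 to 0.0277 kb. None passed, where 1.05% of promoters did. At 3 h RBBP4 was at 3.70, 3.72 and 3.72 kb in ASH1L-/- cells, below all WT libraries, with a difference of −0.249 ± 0.0831 kb that did not pass (adjusted p = 0.0567, limma). Without UV, ASH1L-/- minus WT lay between −0.0213 kb (RBBP4) and 0.118 kb (SSRP1), again with no call among the 5, and 3.97% of promoters were called. None of the 5 genes was called in the upstream or in the downstream 2 kb, where 18.5% and 9.12% of all windows rose in irradiated WT cells. At unadjusted p under 0.05, limma found 7 of 50 upstream and 7 of 50 downstream tests, against 26.8% and 21.5% of the tests over all windows. Several of these windows had little or no room to rise. The downstream 2 kb were full in 17 of 18 libraries for SUPT16H and SSRP1 and in 14 for RBBP4, and the upstream 2 kb of ASH1L in 15. For these windows the lack of calls does not show a lack of change.

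The direction of the UV change depends on how the total covered length is treated. Scaled to an equal total per library, all 5 genes fell in WT cells, with differences between −1.18 kb for RBBP4 and −0.639 kb for MORF4L1 (adjusted p = 0.0152 and 0.0325, limma). The scaling divides by a total that rose in these cells, so a covered length that rises less than the total must fall. In unirradiated WT cells RBBP4 had 94.1% of its window covered and could not rise far, while the others had 57.3 to 70.2%. A loss of the mark at the 5 genes was not tested, and these falls alone do not show one. The same scaling turned the split over all promoters from 4495 higher and 4 lower to 390 higher and 7708 lower, with a median of −0.616 kb. In ASH1L-/- cells the scaled values of the 5 genes were between −0.471 and −0.236 kb and did not pass, and over all promoters 107 were higher and 40 lower instead of 3536 and 38.

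Beyond the promoter window, the H3K4me3 domain of MORF4L1 was longer in irradiated ASH1L-/- cells. The body values of MORF4L1 were 0.931, 0.965 and 2.59 kb without UV, 3.13, 3.36 and 3.77 kb at 1 h, and 3.80, 3.27 and 3.88 kb at 3 h. Every irradiated ASH1L-/- library was above every unirradiated one. In WT cells MORF4L1 had 1.28, 1.14 and 1.67 kb without UV, 2, 2.63 and 2.38 kb at 1 h, and 1.80, 2.03 and 2.70 kb at 3 h.

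MORF4L1 rose by 2.04 ± 0.352 kb in irradiated ASH1L-/- cells (adjusted p = 0.00627, limma), as 8.2% of 12402 gene bodies did. By time, it rose by 1.92 ± 0.407 kb at 1 h (adjusted p = 0.0416, limma; 0.831% of bodies) and by 2.15 ± 0.407 kb at 3 h (adjusted p = 0.00761, limma; 9.09% of bodies). In WT cells the difference was 0.891 ± 0.352 kb and did not pass (adjusted p = 0.0866, limma). The UV changes of the genotypes differed by 1.15 ± 0.498 kb, which did not pass either (adjusted p = 0.264, limma). At 3 h MORF4L1 was higher in ASH1L-/- than in WT cells by 1.47 ± 0.407 kb (adjusted p = 0.0203, limma; 7.22% of bodies). The calls for both times together and for 3 h held without any 1 of the 18 libraries, whereas that at 1 h was lost in 10 of 18 and that between genotypes in 4 of 18. Scaled to an equal total, all of these passed. With windows of low coverage kept in, none did (adjusted p = 0.0604 to 0.220, limma), and with peaks of at least 5-fold enrichment only the 3-h rise (0.930 kb) and the 3-h genotype difference (0.894 kb) were lost. The scaling turned the split over all bodies at 3 h between genotypes from 895 higher and 1536 lower to 1967 and 1135, and in irradiated ASH1L-/- cells from 1017 and 119 to 1041 and 310.

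The longer body coverage lay next to the promoter. All of it fell within a region of MORF4L1 that ran from 2 to 6.57 kb downstream of the start (hg38, chr15:78874890-78879457), apart from a region seen in 1 library. Within it, smaller peaks followed the one that reached in from the promoter. The promoter peak ended 2.88 to 2.94 kb downstream in all 6 unirradiated and 1-h WT libraries, and at 3.19, 2.94 and 3.77 kb in WT libraries at 3 h. It ended at 3.91 to 5.36 kb in ASH1L-/- cells at 1 h and at 4.16 to 4.23 kb at 3 h, and in unirradiated ASH1L-/- cells at 2.93, 2.96 and 3.89 kb. The RBBP4 promoter peak also ended further out in ASH1L-/- than in WT libraries at 1 h, at 4.01 to 4.40 against 2.77 to 3.83 kb. At 3 h these RBBP4 ends overlapped (3.68 to 4.21 and 2.70 to 3.78 kb).

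RBBP4 had 0.395, 0.096 and 1.26 kb of body coverage in unirradiated WT cells, 1.57, 2.47 and 1.65 kb at 1 h and 1.77, 1.01 and 1.78 kb at 3 h. The 1-h libraries were all above the unirradiated ones, and the 3-h libraries overlapped them. RBBP4 rose by 1.12 ± 0.3 kb over both times (adjusted p = 0.0218, limma; 19% of bodies) and by 1.31 ± 0.346 kb at 1 h (adjusted p = 0.0399, limma; 6.99% of bodies). Leaving out 1 library ended the pooled call in 4 of 18 cases (unirradiated replicates 1 and 2, 3-h replicates 1 and 3, all WT) and the 1-h call in 8 of 18. Scaled to an equal total, the pooled difference was 0.809 kb and the 1-h difference 1.06 kb, and neither passed (adjusted p = 0.158 and 0.176, limma). Both also missed the threshold with an equal number of peaks per library, with peaks of at least 5-fold enrichment and without the filter on low coverage. Unirradiated ASH1L-/- cells had 1.91, 1.28 and 1.81 kb, above all 3 unirradiated WT values, and this difference of 1.08 ± 0.346 kb did not pass (adjusted p = 0.193, limma).

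SSRP1 had values of opposite sign in the 2 genotypes. Its body coverage was 0.388, 0.403 and 1.15 kb in unirradiated WT cells and 0.921 to 3.63 kb after UV. In ASH1L-/- cells it was 2.31, 1.56 and 3.83 kb without UV and 0.776 to 1.75 kb after it. UV differences were 1.25 ± 0.538 kb in WT and −1.42 ± 0.538 kb in ASH1L-/- cells, and neither passed (adjusted p = 0.110 and 0.107, limma). The difference between them was −2.67 ± 0.761 kb (adjusted p = 0.0705, limma). After scaling to an equal total it was −2.56 kb and passed (adjusted p = 0.0357, limma), as did the fall in ASH1L-/- cells (−1.73 kb, adjusted p = 0.0255, limma). A region 7.31 to 9.91 kb downstream of the SSRP1 start held a peak in all 18 libraries and overlaps the promoter window of TNKS1BP1. That window was left out of the body, but coverage beside it was counted and cannot be assigned to SSRP1 alone. SUPT16H had the lowest median body coverage, 0.571 kb with a range of 0.098 to 1.12 kb over all libraries, and was not called.

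**Figure D3:**
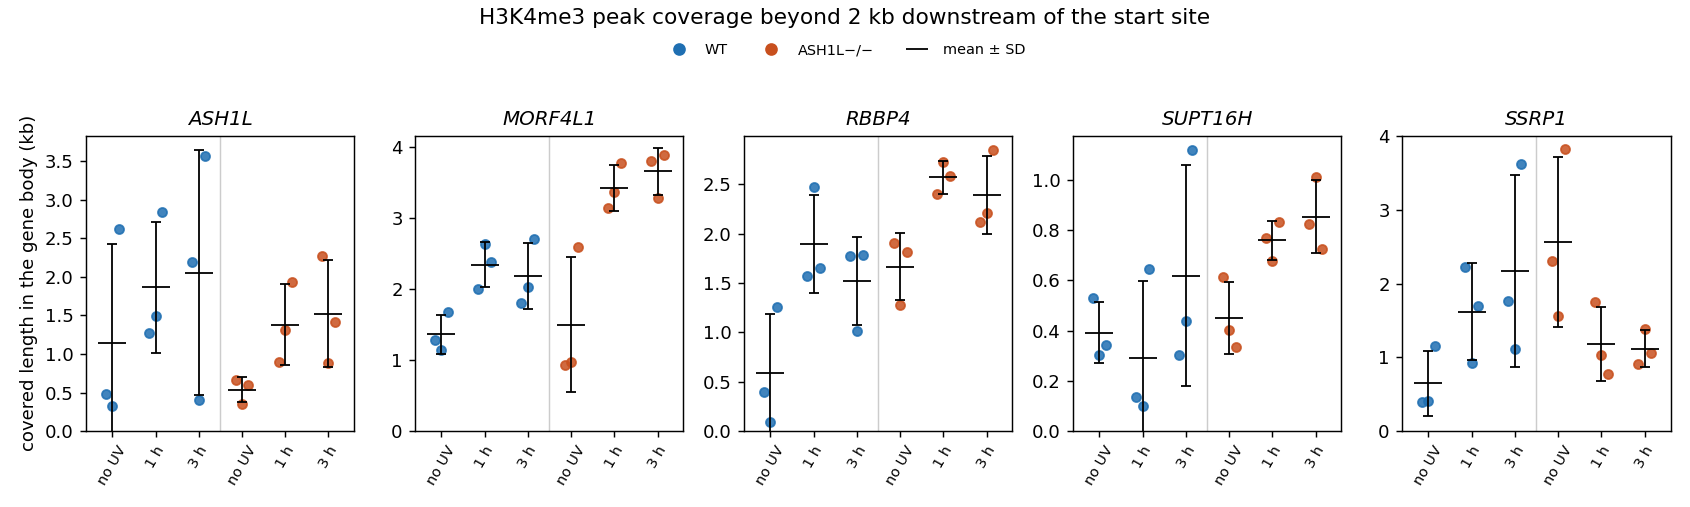
Covered length of H3K4me3 in the gene body in kb (y axis, own scale per gene) by genotype and time, with a point per library and the mean ± SD of 3 libraries. All 6 irradiated ASH1L-/- libraries of MORF4L1 lie at or above 3.13 kb, above all WT libraries, and SSRP1 is highest in an unirradiated ASH1L-/- library (3.83 kb).

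ASH1L had an H3K4me3 region far inside the gene, between exons 3 and 4, 90.2 to 91.7 kb downstream of the start (hg38, chr1:155471064-155472620). It held a peak in 9 of 9 WT and 7 of 9 ASH1L-/- libraries, with a highest fold enrichment over input of 2.48 to 5.09. The strongest peak in the promoter window had 5.30 to 14.8. The 5.30, in ASH1L-/- replicate 1 at 3 h, belonged to the separate peak 2 kb downstream. In that library the peak over the start was 4.17-fold and the intron region 4.51-fold, so the intron region was not below the start-site peak everywhere. The 2 libraries without a peak were replicates 2 and 3 of unirradiated ASH1L-/- cells. The region lies in an intron of ASH1L, and no promoter window of another protein-coding gene overlaps it. Other kinds of gene were not checked there. The 300 bases around the median summit, chr1:155471504-155471803 of hg38 on the strand of ASH1L, are shown for contrast with the promoter.
ASH1L intron: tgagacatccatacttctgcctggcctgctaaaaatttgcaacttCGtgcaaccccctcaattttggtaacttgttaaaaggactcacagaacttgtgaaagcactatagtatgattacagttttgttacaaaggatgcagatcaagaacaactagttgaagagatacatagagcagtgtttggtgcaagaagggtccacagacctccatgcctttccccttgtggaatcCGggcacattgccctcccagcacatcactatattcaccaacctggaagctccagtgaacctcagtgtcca

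This stretch carried 2 CG dinucleotides (capitals) and was 45.0% G+C, against 23 in the 250 bases before the ASH1L start. The summed body coverage of ASH1L ranged from 0.319 to 3.57 kb, of 225.5 kb measured. No contrast was called for it.

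The height of the mark was measured beside its length. The strongest promoter peak was taken by its fold enrichment over input. In unirradiated WT cells SUPT16H had 15.4, 15.7 and 19.3-fold, SSRP1 12.9, 9.68 and 14.5, and RBBP4 12.9, 9.24 and 13.2. ASH1L had 8.27, 9.34 and 13.7, and MORF4L1 10.9, 9.10 and 11.1. SUPT16H was above all the others, which overlapped among themselves.

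Of the 7 calls in 50 tests, 4 were of SSRP1. In unirradiated ASH1L-/- cells its strongest peak was 6.89, 6.41 and 6.51-fold, below every WT library. The difference was −0.88 ± 0.24 on the log2 scale, a ratio of 0.542 (adjusted p = 0.0152, limma), in a contrast where 14.3% of 13343 promoters were lower. It was lost without WT replicate 1 or 3 (adjusted p = 0.0731 and 0.110, limma). At 1 h SSRP1 reached 18.5, 12.8 and 18.6-fold in ASH1L-/- cells, overlapping the WT libraries at 1 h (15.7, 17.4 and 18.2-fold). It rose 2.48-fold, by 1.31 ± 0.24 on the log2 scale (adjusted p = 4.65e-04, limma), and 35.1% of promoters rose in this contrast.

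At 3 h SSRP1 was at 5.32, 11.3 and 10.8-fold in ASH1L-/- cells, against 19.5, 17.4 and 16.3-fold in WT. The groups did not overlap, with a log2 difference of −1.03 ± 0.24 (adjusted p = 6.14e-04, limma), which was −0.68 without replicate 1 of the ASH1L-/- group and still passed. Over both times SSRP1 rose by 0.85 ± 0.21 on the log2 scale in ASH1L-/- cells (adjusted p = 0.02, limma; 3.82% of promoters), a call lost in 5 of the 18 fits without 1 library (ASH1L-/- replicates 1 to 3 without UV, 1 at 1 h and 2 at 3 h). In WT cells SSRP1 differed by 0.51 ± 0.21 (adjusted p = 0.0620, limma), and 0 of 5 genes passed as a rise in WT cells, where 28.5% of promoters did.

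RBBP4 was lower in ASH1L-/- cells after UV. At 1 h it stood at 8.52, 10.3 and 7.42-fold against 16.2, 19.4 and 14.3-fold in WT, and at 3 h at 6.70, 8.01 and 7.47-fold against 13.7, 13.8 and 14.2-fold. The 3-h summits of ASH1L-/- replicates 2 and 3 lay at −1330 and −1388 bases, beyond the ZBTB8OS start. Those of WT libraries lay at 367, 349 and 532 bases. On the RBBP4 side of the start, the peaks of these 2 ASH1L-/- libraries were 4.80 and 4.04-fold. At 3 h the values thus partly compare different peaks of a shared promoter. The groups did not overlap at either time. The log2 differences were −0.93 ± 0.23 at 1 h (adjusted p = 0.00846, limma; 16.5% of promoters lower; not passed without WT replicate 2 or ASH1L-/- replicate 3) and −0.92 ± 0.23 at 3 h (adjusted p = 0.00116, limma). SUPT16H was also lower at 3 h, with 10.5, 11.5 and 15.1-fold against 20.3, 20.2 and 18.4-fold, a log2 difference of −0.68 ± 0.20 (adjusted p = 0.00456, limma).

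At 3 h, 3 of 5 genes were therefore lower in ASH1L-/- cells, where 59.3% of all promoters were and the median promoter was at −0.68. Centred on the median promoter of each library, the 3-h differences became −0.27 (SSRP1), −0.16 (RBBP4) and 0.08 (SUPT16H) and none of these passed. ASH1L, at 0.60, passed as higher (adjusted p = 0.0145, limma), a reversed sign from −0.15 before centring (adjusted p = 0.606, limma). At −0.64 it passed as lower in WT cells at 3 h than without UV (adjusted p = 0.0193, limma), from −0.40 before centring (adjusted p = 0.297, limma). The 3-h ASH1L summits lay at 2132, 464 and −1558 bases in ASH1L-/- and at 462, 207 and 469 bases in WT libraries. The 3-h genotype difference of ASH1L thus partly compares different peaks. Centring turned the split over all promoters at 3 h from 51 higher and 7915 lower to 2376 higher and 1666 lower. Without UV it went from 78 and 1910 to 1015 and 534, and at 1 h from 40 and 2198 to 776 and 594. In irradiated cells against unirradiated ones it went from 3802 and 11 to 730 and 336 in WT, from 510 and 39 to 577 and 619 in ASH1L-/-, and from 4680 and 17 to 444 and 563 in ASH1L-/- at 1 h. The rise of SSRP1 at 1 h in ASH1L-/- cells and the lower RBBP4 at 1 h passed after centring too, at 0.78 and −0.54 (adjusted p = 0.0429 and 0.0446, limma). The lower SSRP1 of unirradiated ASH1L-/- cells did not (−0.49, adjusted p = 0.168, limma).

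**Figure D4:**
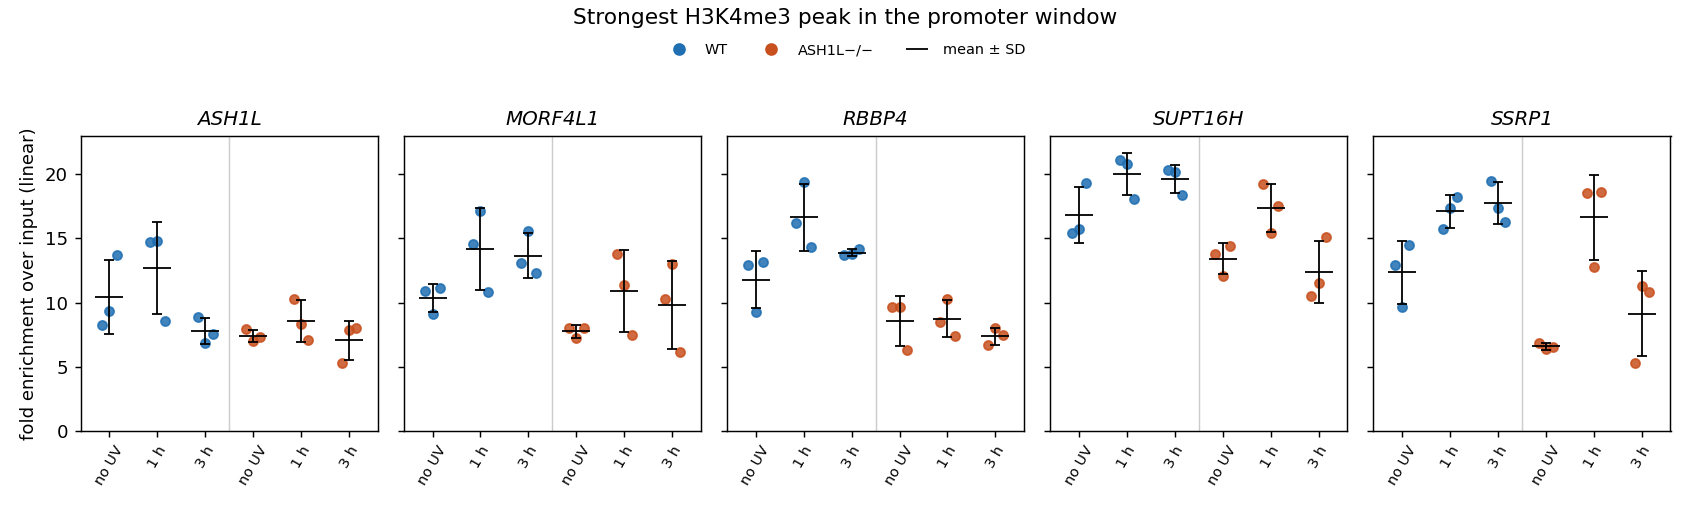
Fold enrichment over input of the strongest H3K4me3 peak in the promoter window (y axis, linear) by genotype and time, with a point per library and the mean ± SD of 3 libraries. SSRP1 in ASH1L-/- cells goes from 6.41 to 6.89 without UV to 12.8 to 18.6 at 1 h, and RBBP4 lies lower in ASH1L-/- than in WT cells at 1 h and 3 h.

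XPC peaks covered these promoters irregularly. In unirradiated WT cells ASH1L had 1.75, 0, 2.67 and 0.280 kb under XPC peaks, and SSRP1 3.27, 0.805, 2.05 and 0 kb, so that replicates of a group ranged from no coverage to most of the window. SUPT16H had none in 13 of 19 libraries. Limma called 0 of 50 tests of the 5 promoters and 0% of 18991 promoters in irradiated WT cells. At unadjusted p under 0.05 there were 3 of 50, close to the 4.89% over all promoters, for SSRP1 in irradiated WT cells (both times together and 1 h) and for MORF4L1 between genotypes at 1 h.

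ASH1L, the longest of the 5 genes, had the longest covered length of XPC. It had 40.9, 37.2, 33.1 and 34.9 kb under XPC peaks without UV, 25.0, 29.1 and 10.4 kb at 1 h and 26.3, 24.8 and 21.2 kb at 3 h. The irradiated libraries all lay below the unirradiated ones. The difference of −13.7 ± 6.09 kb did not pass over all gene bodies (unadjusted p = 0.0355, adjusted p = 0.388, limma), where 0.675% of 17181 bodies were lower. As a share of the body this was 16.2% without UV, 9.54% at 1 h and 10.7% at 3 h, while the median body had 14.3%, 9.64% and 12.1%. The total under XPC peaks was 307 to 397 Mb in unirradiated WT libraries, 197 to 280 Mb at 1 h and 228 to 403 Mb at 3 h. Scaled to an equal total, the ASH1L difference was −6.10 kb (adjusted p = 0.705, limma).

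In ASH1L-/- cells MORF4L1 had 24.4% of its body under XPC peaks without UV and 0.370% at 3 h. It had 6.88, 6.96 and 3.18 kb in unirradiated ASH1L-/- cells, 1.37, 1.95 and 3.23 kb at 1 h and 0, 0.258 and 0 kb at 3 h. The 3-h libraries lay below all unirradiated ones, by 5.59 ± 1.02 kb, and the call was missed (adjusted p = 0.0975, limma), where 0% of bodies passed. It passed with an equal number of peaks per library (−4.17 kb, adjusted p = 0.0346, limma) and without replicate 3 of unirradiated ASH1L-/- cells (−6.84 kb, adjusted p = 0.0167, limma). The shortest XPC list belonged to this 3-h group, as replicate 1, and held 326438 peaks over 165 Mb. Replicate 2 of the group had the longest total, 464 Mb, and 0.258 kb at MORF4L1. In WT cells MORF4L1 had 5.20, 2.48, 0.876 and 3.65 kb without UV and 0.557 to 2.38 kb after it. Without UV, MORF4L1 was at 24.4% of its body in ASH1L-/- and 13.1% in WT cells, a difference of 2.63 ± 0.958 kb that did not pass (adjusted p = 0.205, limma; 0.815% of bodies higher). It was 3.87 kb and passed without replicate 3 of ASH1L-/- cells (adjusted p = 0.0337, limma).

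RBBP4 and SSRP1 had the most XPC per length in unirradiated WT cells, but not in every group. RBBP4 had 27.8% of its body under XPC peaks and SSRP1 32.2%, above 88.5% and 92.3% of 17678 gene bodies. SUPT16H had 5.70%, above 17.8% of bodies. A region of RBBP4 that ran from 8.20 to 28.7 kb downstream of the start held a peak in all 19 libraries. After irradiation of WT cells, RBBP4 was at 13.7% and 18.5% and SSRP1 at 5.78% and 12.3% at 1 h and 3 h. In unirradiated ASH1L-/- cells they were at 17.5% and 21.6%, below MORF4L1. Altogether limma called 0 of 50 body tests of XPC, with 9 at unadjusted p under 0.05, where 7.35% of the tests over all bodies were.

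**Figure D5:**
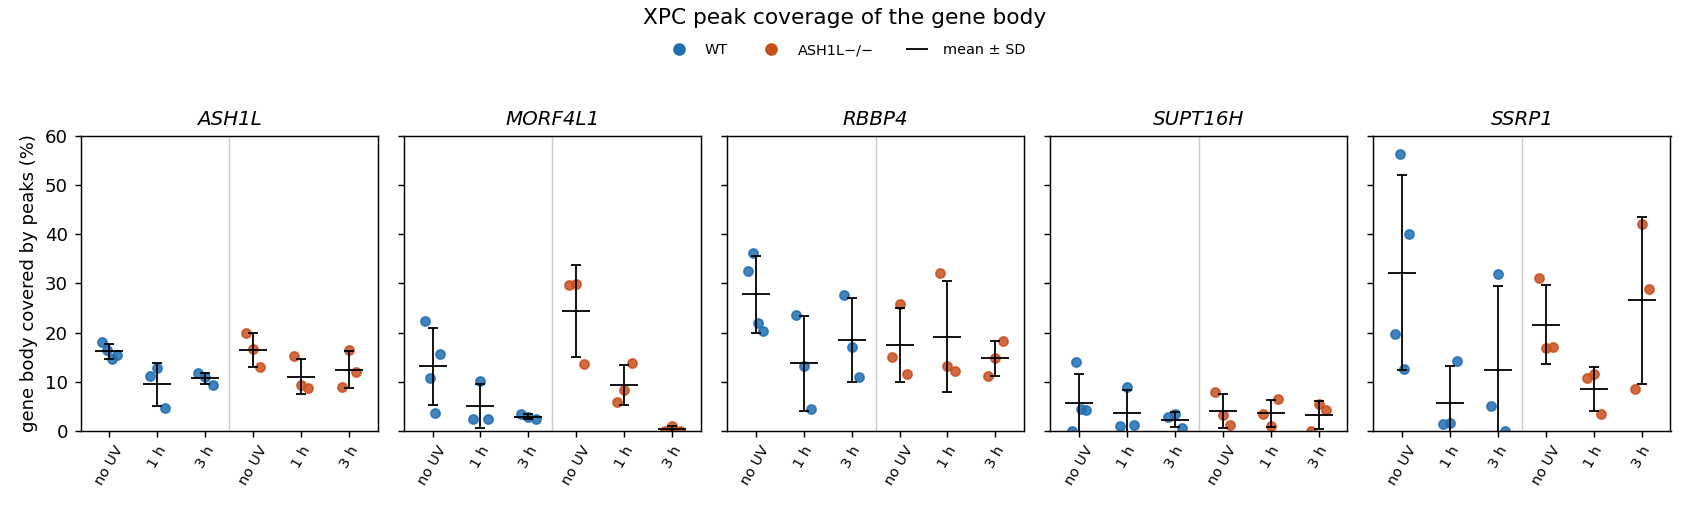
Percentage of the gene body under XPC peaks (y axis) by genotype and time, with a point per library and the mean ± SD of 3 libraries (4 for unirradiated WT). ASH1L lies lower in all irradiated WT libraries than in the unirradiated ones, and MORF4L1 in ASH1L-/- cells goes from 13.7 to 29.9% without UV to at most 1.11% at 3 h.

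Some genes that work with these proteins also rose after UV, and few differed between the genotypes. Of 20 further partners of MRG15 and RBBP4, 3 rose in H3K4me3 promoter coverage in irradiated WT cells and 5 in ASH1L-/- cells, with medians of 0.238 and 0.180 kb against 0.203 and 0.174 kb for all promoters, of which 30.5% and 24% rose. KAT5, a histone acetyltransferase, rose by 0.515 ± 0.186 kb and SIN3A, a corepressor scaffold, by 0.388 ± 0.0706 kb in WT cells, while EP400, a chromatin remodeller, rose by 0.589 ± 0.0982 kb and the bromodomain protein BRD8 by 0.362 ± 0.0662 kb in ASH1L-/- cells (adjusted p = 0.0478, 0.00259, 0.00201 and 0.00304, limma).

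Of 20 other histone chaperones, 5 rose in WT cells (median 0.176 kb) and 9 in ASH1L-/- cells (median 0.201 kb), where 30.5% and 24% of all promoters rose. CABIN1, a subunit of the HIRA complex, rose by 0.599 ± 0.126 kb and the H2A.Z chaperone ANP32E by 0.365 ± 0.0724 kb in ASH1L-/- cells. In WT cells TONSL rose by 0.338 ± 0.123 kb and ASF1B by 0.328 ± 0.0849 kb (adjusted p = 0.00594, 0.00460, 0.0491 and 0.0137, limma). Of 5 other H3K36 methyltransferases, SETD2 rose in WT cells by 0.138 ± 0.0374 kb, and SETD2 and NSD2 rose in ASH1L-/- cells by 0.163 ± 0.0374 and 0.244 ± 0.0739 kb (adjusted p = 0.0166, 0.00911 and 0.0283, limma), beside the same shares of all promoters. None of these lists had a call between the unirradiated genotypes. Between irradiated genotypes there were 3 calls. PALB2, which links BRCA1 to BRCA2, was higher in ASH1L-/- than in WT cells at 1 h by 0.460 ± 0.0938 kb (4.16% of promoters called) and at 3 h by 0.417 ± 0.0938 kb (14.4% called), and SIN3A differed at 3 h by −0.438 ± 0.0815 kb (adjusted p = 0.00983, 0.00968 and 0.00319, limma).

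At single times the largest rises were of the same genes or of 6 others. At 1 h in WT cells, where 25.7% of promoters rose, 6 partners, 5 chaperones and 2 methyltransferases rose, with MTA2 at 0.513 ± 0.109 kb, NASP at 0.338 ± 0.0921 kb and NSD1 at 0.314 ± 0.110 kb (adjusted p = 0.00700, 0.0189 and 0.0476, limma). At 3 h, where 11.8% rose, 2 partners and 3 chaperones did, with PHF12 at 0.355 ± 0.108 kb and ASF1A at 0.365 ± 0.106 kb (adjusted p = 0.0444 and 0.0385, limma). In ASH1L-/- cells 4 partners, 7 chaperones and 2 methyltransferases rose at 1 h (23% of promoters), HDAC1 by 0.425 ± 0.114 kb (adjusted p = 0.02, limma), and 2, 3 and 1 rose at 3 h (11.6% of promoters). Scaled to an equal total, the calls of the 3 lists over all contrasts went from 64 higher and 1 lower to 1 higher and 73 lower.

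The promoters whose coverage varied most like that of each gene over the 18 H3K4me3 libraries are given as a description, since the promoters of a library share its depth and total. They were ZNF594, HTD2 and KCTD2 for ASH1L (Pearson r = 0.91 to 0.93), PPFIA1, LINGO1 and GSE1 for MORF4L1 (0.92 to 0.94), ANKMY2, SSR4 and PGRMC2 for RBBP4 (0.94 to 0.96), EXOSC10, MRPL11 and SGSM2 for SUPT16H (0.80 to 0.87), and CCDC97, ZBTB9 and NEURL4 for SSRP1 (0.87 to 0.88). Among the 5 genes, MORF4L1 and RBBP4 varied most alike (0.84) and RBBP4 and SUPT16H least (0.14). The total covered length of the library gave 0.11 (SUPT16H) to 0.48 (ASH1L).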

How the data were processed

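The sources were peak lists of single libraries, 18 narrow for H3K4me3 and 19 broad for XPC. Of 61 samples, the input and XPC-deficient samples served only as controls. Per the labels and the study's methods, the authors trimmed reads with Trim Galore 0.6.5, aligned them with BWA 0.7.17-r1188 to hg38, removed duplicates and blacklisted regions (Picard, SAMtools 1.7, bedtools 2.29.2) and called peaks with MACS2 2.2.7.1, against pooled input for H3K4me3 and against pooled XPC-deficient immunoprecipitate for XPC. The deposited values are positions of peaks, the fold enrichment (a ratio over control), and the −log10 p and −log10 q of a peak. Each compares 1 library with its control.

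The 5 genes and the 3 gene lists were chosen with earlier results of these data known. Start sites came from GENCODE 44 (MANE, otherwise canonical transcripts), and gene bodies excluded other promoters. Windows covered in at least 3 libraries, or promoters with a peak in all H3K4me3 libraries for the log2 fold enrichment, were fitted with limma 3.58.1 in R 4.3.3 (group means, variance trend, robust). There were 10 contrasts per window, the times pooled or single, with Benjamini-Hochberg adjustment over all windows at 0.05. P-values measure the spread among libraries called biological replicates in the labels. The fit was tested on simulated data.

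Genes were named by a rule, namely the 5 genes in all windows, up to 2 called genes per list and contrast with the largest change, genes starting inside a promoter window, and the 3 most correlated promoters per gene. Alternatives were scaling or centring, stricter or equal peak numbers, no filter, another window, a replicate block, plain variances and leaving out libraries. Python 3 scripts computed coverage and figures. Protein and guide sequences were not used here.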

Additional observations from a re-analysis of the deposited data

Results flagged for a closer look

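In unirradiated WT cells, replicate 1 had 1.87 kb of the SUPT16H promoter under XPC peaks, while the other 3 libraries of the group had 0. This library lay far from the others by Dixon's ratio (above the 95% critical value for 4 samples) among 10 groups of 4 checked. Chance alone gives about 1 in 20 groups for values with a continuous spread. Here the ratio is 1.00 for any single library above 0, and this promoter was at 0 in 13 of 19 libraries, so the ratio says little.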

How the results depend on the processing

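Counts are of the 50 tests per window (5 genes, 10 contrasts; 100 for the upstream and downstream windows together). For the H3K4me3 promoter the count was 1, and it was 10 with scaling to an equal total, 3 with 1 kb on each side, 2 with a fold enrichment of at least 5, and 0 with an equal number of peaks, no filter or plain variances. Without 1 library it ran from 0 to 6. For the upstream and downstream windows the count was 0, and it was 16 scaled, 2 with a fold enrichment of at least 5 and 3 with the replicate block, from 0 to 5 without 1 library. For H3K4me3 in gene bodies the count was 6, and it was 10 scaled, 3 with a fold enrichment of at least 5 and 0 without the filter, from 2 to 9 without 1 library. For the strongest peak the count was 7, and 14 with −log10 p in place of fold enrichment, from 6 to 9 without 1 library. For XPC in gene bodies the count was 0, and 1 with an equal number of peaks, from 0 to 3 without 1 library. Other counts kept within 1.5 times under the alternatives run. Without the filter more windows were tested; for the other changes the cause was not tested.

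Same-numbered H3K4me3 libraries varied together weakly. Their correlation had a median of 0.10 (18 of 45 above 0.1, at most 0.29), against −0.04 between differently numbered libraries. For XPC the medians were 0.03 (8 of 45 above 0.1) and −0.00. With the replicate block, 20 tests were called instead of 14, among them all 14.

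Scaled to an equal total, UV differences of H3K4me3 promoter coverage reversed in WT cells to −1.18 (RBBP4), −0.909 (ASH1L), −0.901 (SUPT16H), −0.862 (SSRP1) and −0.639 kb (MORF4L1), and in ASH1L-/- cells to −0.471, −0.314, −0.283, −0.390 and −0.236 kb in the same order. Under this scaling any covered length that rises less than the total falls. With a fold enrichment of at least 5, ASH1L-/- values reversed for RBBP4 (−0.574 kb) and ASH1L (−0.364 kb). SUPT16H reversed at 0.08 (log2, 3-h genotype difference, centred) and, for XPC in its body in irradiated WT cells, at 0.252 kb with an equal number of peaks and from −1.40 to 0.0288 kb without 1 library. Of 2712 other uncalled values under alternatives, 9.55% changed sign.

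The rise of RBBP4 promoter coverage in WT cells passed in 4 of 18 fits that left out 1 library. The MORF4L1 body rise in irradiated ASH1L-/- cells was lost without the filter alone (adjusted p = 0.0604, limma). XPC lists capped at 500000 peaks limit what a covered length can show.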
